A study of Mus musculus with 2 samples.

Results

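The genes described here are the 10 mouse genes of the MHC class II pathway named H2-Aa, H2-Ab1, H2-Eb1, H2-DMa, H2-DMb1, H2-DMb2, H2-Oa, H2-Ob, Cd74 and Ciita. They were found by gene name among the gene probes of an expression array, which gave 13 probes of 55659. Of the 10 genes, 9 had at least 1 probe well above background on both arrays, out of 20519 genes measured in this way.

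RNA of bone marrow-derived mast cells was compared on 2 one-colour arrays, 1 for cells transfected with GATA1 siRNA and 1 for cells transfected with control siRNA, each at 200 pmol. Both groups came from C57BL/6 mice, whose age and sex the labels do not give. Marrow mononuclear cells of both groups were grown 2 weeks in interleukin 3 at 10 ng/mL, after which stem cell factor, also at 10 ng/mL, was added for a further 2 weeks. Each array holds RNA pooled from 2 animals, so there is 1 array per group and no spread between animals can be had from it. The siRNA lowers a transcript for a limited time in cells already grown as mast cells, and its sequence and the hours after transfection were not used here.

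MHC class II molecules show peptides taken up from outside the cell to CD4+ T cells. An alpha chain and a beta chain pair in the endoplasmic reticulum around the invariant chain, encoded by Cd74, which fills the groove and guides the complex to endosomes. There cathepsins and other proteases cut the invariant chain down to a short fragment, H2-DM exchanges that fragment for an antigen peptide, and H2-DO restrains H2-DM. Ciita encodes the transactivator that switches the class II genes on. Dendritic cells, B cells and macrophages carry class II constitutively or on activation, and mast cells carry little unless they are stimulated, for example with interferon gamma.

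In mice of the C57BL/6 background the gene of the E alpha chain is defective, so the beta chain gene H2-Eb1 is transcribed without a partner for it, and I-A, made of H2-Aa and H2-Ab1, is the class II molecule of the cell surface. On these arrays the probe of the E alpha pseudogene H2-Ea-ps was not well above background in either group, with signals of 3.0 on the GATA1 siRNA array and 3.45 on the control siRNA array.

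The probes are 60-base oligonucleotides, and 4 of them are printed to show what was measured at either end of the members' range and where no difference could be had. H2-Aa had the largest difference of the members, H2-DMa and H2-Ob lay near 0 and have probes whose 60 bases span 564 and 369 bases of genome and so cross an exon junction, and H2-DMb2 was not well above background. Positions are those of the array annotation (mouse build mm9): chr17:34421285-34421344 on the minus strand for H2-Aa, and on the plus strand chr17:34274300-34274863 for H2-DMa, chr17:34284764-34284823 for H2-DMb2 and chr17:34380481-34380849 for H2-Ob.
H2-Aa: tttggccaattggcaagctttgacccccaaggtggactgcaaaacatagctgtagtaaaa
H2-DMa: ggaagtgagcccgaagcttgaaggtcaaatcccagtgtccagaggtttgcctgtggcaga
H2-DMb2: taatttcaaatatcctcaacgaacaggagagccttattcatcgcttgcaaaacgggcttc
H2-Ob: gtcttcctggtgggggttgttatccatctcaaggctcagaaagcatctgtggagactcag

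The pair of H2-Ab1 probes is shown in part, because the sequences bear on how the values can be read. The H2-Ab1 probes overlap by 51 bases, of which 50 are identical, and differ by the substitution T51C, counted from the 5′ end of the first probe. They are therefore largely the same measurement made at 2 places of the array. The 30-base windows around the substitution, chr17:34406326-34406355 for the first probe, have the differing base in capitals.
H2-Ab1, first probe: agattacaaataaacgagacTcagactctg
H2-Ab1, second probe: agattacaaataaacgagacCcagactctg
Of the other probes on the array, 3 share a run of at least 20 bases with the Ciita probe. For the other member genes no probe of another gene shared such a run.

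Of 59305 gene spots, 55.7% were well above background on the GATA1 siRNA array and 53.3% on the control siRNA array, none was saturated, and values were divided by the array's 75th percentile (340 and 303.2 scanner units). Gata1 had a signal of 3930 on the GATA1 siRNA array against 16415 on the control siRNA array, a log2 difference of -2.23. All 10 mast cell markers listed (Kit, Fcer1a, Ms4a2, Cpa3, Hdc, Tpsb2, Mcpt4, Cma1, Il1rl1 and Gata2) were measured on both arrays.

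The transcripts of the class II chains and of the invariant chain were 1.34- to 1.49-fold higher in GATA1 siRNA cells, whereas those of the H2-DM and H2-DO chains differed by less than the scanner error. That error is nearly the same for all these probes, at 0.20 to 0.22. It is wider than the median SD between repeated spots of like signal, given below. The 5 probes of H2-Aa, H2-Ab1, H2-Eb1 and Cd74 gave log2 differences of 0.42 to 0.58, with a median of 0.43. The 5 measured probes of H2-DMa, H2-DMb1, H2-Oa and H2-Ob gave -0.05 to 0.12, with a median of 0.09. A log2 difference here always has control siRNA subtracted from GATA1 siRNA, and the median over all 20519 measured genes was 0.01 with an SD of 0.29. Since each group is a single array, no difference could be checked in a replicate and no p-value is given, and in a pooled culture more RNA per cell and more cells of a type that carries class II cannot be told apart.

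**Figure D1:**
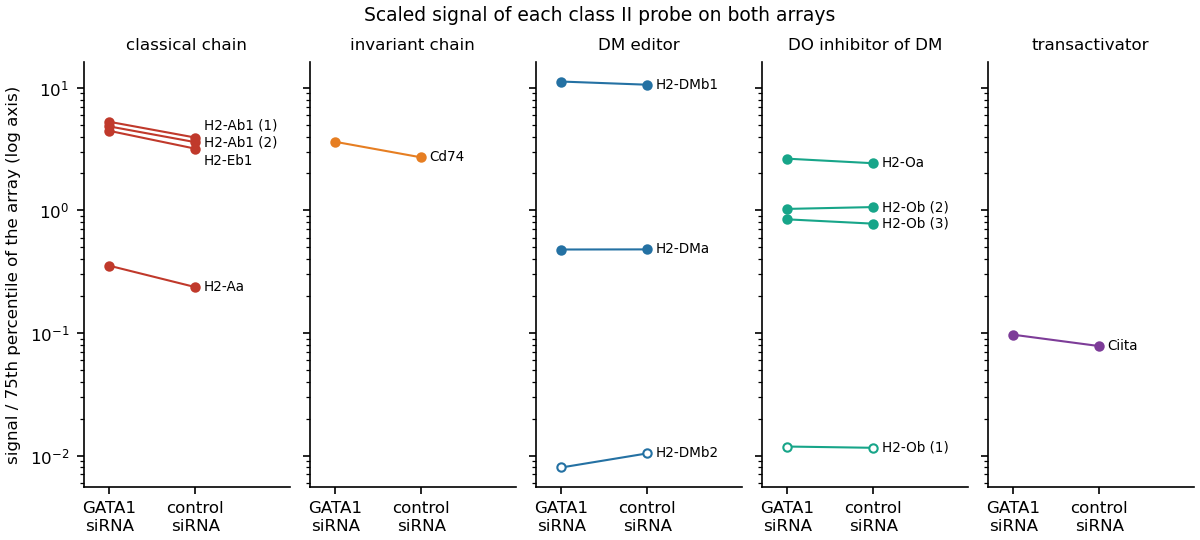
Signal of each of the 13 class II probes divided by the 75th percentile of its array (vertical log axis) on the GATA1 siRNA array (left) and the control siRNA array (right), grouped by role. Filled points are well above background and open points are not; probes of a gene are numbered by position, and the lines of H2-Aa, H2-Ab1, H2-Eb1 and Cd74 slope down to the control siRNA array.

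H2-Aa, the alpha chain of I-A, had a signal of 120.0 scanner units on the GATA1 siRNA array and 71.7 on the control siRNA array, which are 0.353 and 0.236 of the arrays' 75th percentiles. Its log2 difference was 0.58 (1.49-fold), and 1.90% of all measured genes had a difference as high or higher. The scanner software's own error of this difference was 0.22, which covers the spot and not the cells or the animals. Signals of probes for different genes cannot be set against each other.

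H2-Ab1, the beta chain of I-A, has 2 measured probes. The first had signals of 1792 on the GATA1 siRNA array and 1188 on the control siRNA array, and the second had 1643 and 1090. The log2 differences were 0.43 at each probe (1.34-fold), with a scanner error of 0.20. The match bears on the array alone, since the probes overlap and come from the same RNA.

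H2-Eb1, the beta chain that lacks its E alpha partner in this strain, had a signal of 1512 on the GATA1 siRNA array and 965 on the control siRNA array. Its log2 difference was 0.48 (1.40-fold), with an error of 0.20, and 3.15% of measured genes were as high or higher. H2-Eb2, a related beta chain gene outside the member list, was not well above background on either array (signals of 6.03 and 3.02), so it has no difference.

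Cd74, on chromosome 18 and so unlinked to the H2 genes of chromosome 17, had a signal of 1230 on the GATA1 siRNA array and 819 on the control siRNA array. Its log2 difference of 0.42 (1.34-fold, error 0.20) was the lowest of the 5 probes of these 4 genes, next to the 0.43 of H2-Ab1. Of all measured genes, 4.38% had a difference at least as high as Cd74.

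H2-DMa and H2-DMb1 encode the chains of H2-DM, the peptide editor. H2-DMa had signals of 162.8 on the GATA1 siRNA array and 145.5 on the control siRNA array, which after scaling are 0.479 and 0.480, a log2 difference of -0.0033. H2-DMb1 had signals of 3818 and 3208, a difference of 0.09. Both lay within their scanner errors of 0.21 and 0.20. H2-DMb2, the second beta chain gene of H2-DM, had signals of 2.72 on the GATA1 siRNA array and 3.16 on the control siRNA array, not well above background on either. A second probe annotated to an H2-DMb1 transcript under an Ensembl identifier was also below background on both arrays.

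H2-Oa and H2-Ob encode the chains of H2-DO. H2-Oa had signals of 897 on the GATA1 siRNA array and 734 on the control siRNA array, a difference of 0.12. The 2 measured probes of H2-Ob gave -0.05 (signals of 349 and 322) and 0.12 (287 and 236), a mean of 0.03. Another H2-Ob probe, designed on a cDNA clone, was not well above background (4.02 and 3.50). None of the H2-DO probes differed by more than its scanner error of about 0.20.

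**Figure D2:**
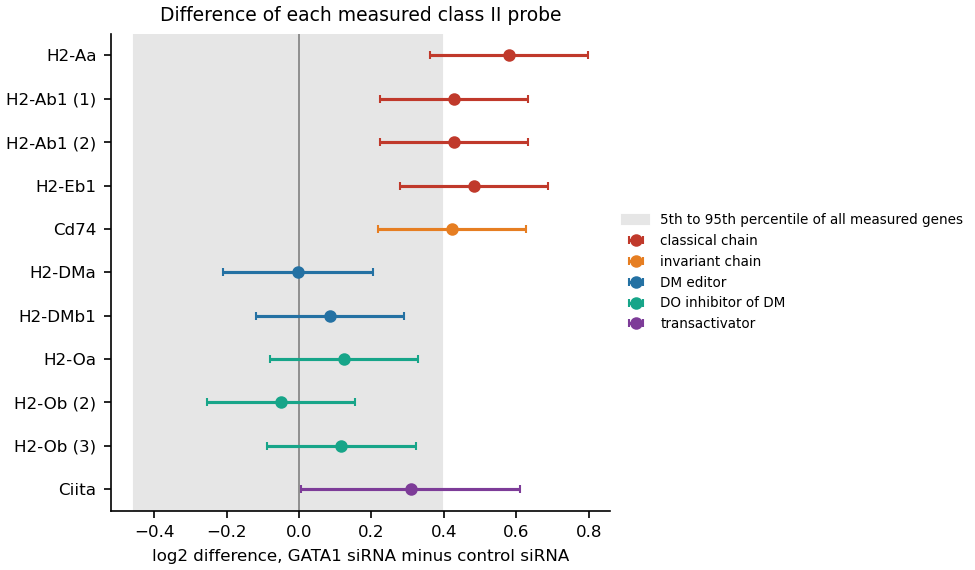
Log2 difference, GATA1 siRNA minus control siRNA, of the 11 measured class II probes, with the scanner software's error as the bar and the 5th to 95th percentile of all measured genes (-0.46 to 0.39) in grey. The 5 probes of H2-Aa, H2-Ab1, H2-Eb1 and Cd74 lie right of the grey band, and the H2-DM, H2-DO and Ciita probes lie inside it.

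Ciita, the transactivator, was dim, with signals of 32.9 on the GATA1 siRNA array and 23.7 on the control siRNA array. Its log2 difference of 0.31 (1.24-fold) was close to its scanner error of 0.30. With another background correction (normexp, offset 50) the difference was 0.0045. The 2 measured probes of other genes that share 20 bases with it gave -0.19 and 0.43. Probes for another Ciita transcript are named on the array by an Ensembl identifier alone and are not members by name. The measured one had signals of 49.5 on the GATA1 siRNA array and 54.5 on the control siRNA array, a difference of -0.30 with an error of 0.23, and the other was below background (8.62 and 12.9). The probes annotated to Ciita thus had differences of opposite sign.

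Counted against the background of all genes, none of the 9 measured members was at least 1.5-fold higher, where 1.83% of all measured genes were, and none was 1.5-fold lower, where 2.77% were. At a line of 25% higher, or lower by the same ratio, 4 of the 9 members were higher (H2-Aa, H2-Ab1, H2-Eb1 and Cd74) against 7.3% of all genes, and none was lower against 9.54%. With 4 other scalings (median, quantile, loess and the authors' own) H2-Aa crossed the 1.5-fold line, at up to 0.64. In all, 8 of 9 members were above 0, as were 52.7% of all genes, and their median was 0.31 against 0.01. The member below 0, H2-DMa, was above 0 under those same 4 scalings, and the median of the members was 0.13 with the normexp correction, which lowers the differences of dim probes.

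**Figure D3:**
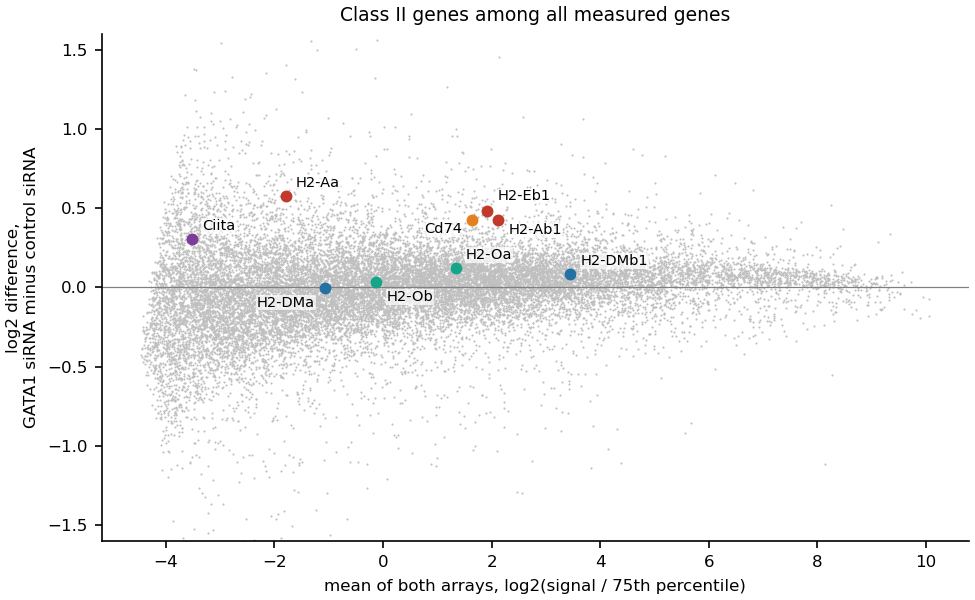
Log2 difference, GATA1 siRNA minus control siRNA (vertical), against the mean log2 scaled signal of both arrays (horizontal) for 20519 measured genes in grey and the 9 measured class II genes in colour; 45 genes lie beyond the vertical limits of 1.6. H2-Eb1, H2-Ab1 and Cd74 lie above most genes of like signal, H2-DMb1 and H2-Oa lie within the cloud, and the cloud widens at the dim end, where Ciita lies.

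The spread between spots of the same probe covers the array and not the cells or the animals. Among probes printed repeatedly, those with a mean signal of 200 to 2000 scanner units had a median SD of 0.06 between spots (104 probes), and those of 50 to 200 had 0.14 (41 probes). Over all genes of those bands the SD of the difference was 0.22 and 0.34. H2-Ab1, H2-Eb1, Cd74, H2-Oa and H2-Ob fall in the brighter band and H2-Aa and H2-DMa in the dimmer one. Under 50 units, where Ciita falls, the figures were 0.26 (21 probes) and 0.39. From 2000 units up, where H2-DMb1 falls, they were 0.03 (73 probes) and 0.17. The differences of H2-DMb1 (0.09) and H2-Oa (0.12) lay within their scanner errors. They exceeded the SD between spots of their bands but not the SD over genes. Each member probe is a single spot, and the median difference of the measured spots around it ranged from -0.0022 to 0.05.

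The class II genes other than Cd74 and Ciita lie together on chromosome 17, and the array has 23 probes between 34232033 and 34481528 (mm9). Of the 15 measured there, 9 belong to members and 6 to other genes. From the H2-Oa end, the probes gave 0.12 for H2-Oa, 0.07 and -0.03 for Brd2, a chromatin reader, and -0.0033 and 0.09 for H2-DMa and H2-DMb1. Next come the class I loading genes, with Psmb9, a subunit of the immunoproteasome, at 0.48 (signals of 3061 and 1951), the peptide transporter gene Tap1 at 0.28, Psmb8 at 0.07 and Tap2 at 0.23. H2-Ob, with its values near 0, lies between Tap2 and the block of H2-Ab1, H2-Aa and H2-Eb1. Positions of higher and of near-zero difference thus alternated along the region. Tap1 is printed 10 times, and its spots gave 0.28 ± 0.07 (SD over spots of 1 array pair), from 0.16 to 0.39.

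The promoters of the class II genes share a module of X and Y boxes, bound by RFX, CREB and NF-Y factors, on which the Ciita protein acts. RefSeq promoter windows (build GRCm38.p6) matched 7 of the 10 members, with 8 windows, and H2-Ab1, Cd74 and Ciita had no entry in the table. In the 250 bases before the start, the Y box core ATTGG (both strands searched) was found in 7 of the 8 windows, and so for 7 of 7 genes, against 33.9% of 32851 promoter windows. The longer form TGATTGG, which contains that core, was present for 6 of 7 genes (all but H2-DMa), against 7.23% of all windows. It lay 45 to 92 bases before the start. The X2 core TGACG was found for H2-Aa alone (17.8% of all windows), and the GATA core GATAA for H2-DMa, H2-Oa and H2-Ob (22.6%). Whether a motif goes with a difference was not tested.

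The 150 bases before the start are printed for H2-Aa and H2-Eb1, which were higher in GATA1 siRNA cells, and for H2-DMb1, H2-Ob and H2-Oa, which were near 0, since members of both kinds carry the box. Capitals mark TGATTGG and ATTGG and also TGACG and the run CTAGNAACNNATGATG, on either strand, and overlapping matches are merged. That last run was written after these promoters were read, and it occurs in 3 of all windows, those of H2-Eb1, H2-DMb1 and H2-Ob, where 15 to 18 bases separate it from TGATTGG. The positions in GRCm38.p6 are chr17:34287824-34287973 (minus strand) for H2-Aa and, on the plus strand, chr17:34305717-34305866 for H2-Eb1, chr17:34153041-34153190 for H2-DMb1, chr17:34238755-34238904 for H2-Ob and chr17:34092229-34092378 for H2-Oa.
H2-Aa: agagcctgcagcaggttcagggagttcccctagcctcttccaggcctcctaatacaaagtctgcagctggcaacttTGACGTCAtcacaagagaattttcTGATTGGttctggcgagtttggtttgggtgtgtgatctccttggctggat
H2-Eb1: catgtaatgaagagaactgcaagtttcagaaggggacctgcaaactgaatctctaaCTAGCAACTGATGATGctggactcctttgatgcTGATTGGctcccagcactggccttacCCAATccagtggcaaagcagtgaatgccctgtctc
H2-DMb1: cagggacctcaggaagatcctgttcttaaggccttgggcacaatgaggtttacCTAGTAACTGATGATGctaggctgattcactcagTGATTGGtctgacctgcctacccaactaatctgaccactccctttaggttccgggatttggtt
H2-Ob: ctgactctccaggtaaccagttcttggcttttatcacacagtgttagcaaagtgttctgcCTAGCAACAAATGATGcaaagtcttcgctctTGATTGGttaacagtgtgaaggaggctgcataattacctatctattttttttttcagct
H2-Oa: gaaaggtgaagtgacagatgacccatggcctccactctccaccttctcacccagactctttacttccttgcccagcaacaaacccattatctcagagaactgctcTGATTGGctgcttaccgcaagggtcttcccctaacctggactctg
A match is a description of letters in these windows and not a site in these cells.

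Of 17 genes listed for processing and accessory roles beside class II, 13 were measured, 11 of them above 0 (52.7% of all genes were), with a median of 0.37 and a range from -0.10 to 0.86. At least 25% higher were 7 of the 13, against 7.3% of all genes, and none was lower by the same ratio, against 9.54%. The other 6 did not reach that line. Tmem176b, a membrane protein of myeloid cells, stood at 0.86 (signals of 183.2 on the GATA1 siRNA array and 89.8 on the control siRNA array). Ctss, the cathepsin that trims the invariant chain in antigen-presenting cells, stood at 0.67 (3505 and 1959), and Ifi30, the thiol reductase that opens disulfide bonds of antigens, at 0.64 (1542 and 883). These are the 3 largest differences of the list and the ones past 1.5-fold, where 1.83% of all genes were. Tmem176a, the partner gene of Tmem176b, was above background on the GATA1 siRNA array alone (signals of 26.5 against 4.21), with a lower bound of 1.56-fold. Such a gene passes the filter only through the array where it is higher, and its signals are dim. Its bound has no error and is not support for a difference. The lowest value of the list was -0.10, at Marchf1, a ubiquitin ligase that removes class II from the surface.

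The factors that bind class II or Ciita promoters had a median of 0.09 over 19 measured of 20. Of the 19, 12 were above 0, where 52.7% of all genes were. None was 1.5-fold higher (1.83% of all genes) or lower (2.77%), and 3 were at least 25% higher (7.3%). Irf8, a factor of myeloid and dendritic cells, stood at 0.42 but was dim (signals of 51.0 on the GATA1 siRNA array and 34.0 on the control siRNA array). Irf1, a factor induced by interferon gamma that acts on the Ciita gene, stood at 0.36 (3336 and 2317).

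Genes of interferon gamma signalling had a median of 0.31 over 15 measured of 19. Of the 15, 13 were above 0 (52.7% of all genes) and 7 at least 25% higher (7.3%). The largest were the interferon-induced GTPases Gbp2 at 0.56 (signals of 1294 on the GATA1 siRNA array and 782 on the control siRNA array), Irgm2 at 0.50 (1423 and 895) and Gbp3 at 0.44 (95.6 and 62.9). Ifng itself and the interferon-induced genes Gbp4, Cxcl9 and Cxcl10 were below background on both arrays. Irf1 belongs to this list and to the one before it.

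Class I genes, which present peptides from within the cell, had a median of 0.21 over 24 measured of 28, with 21 above 0, against 52.7% of all genes, and 1 at least 25% higher, against 7.3%. The largest were Psmb9 at 0.48, the class I gene H2-Q6 at 0.29 and the class I heavy chain gene H2-K1 at 0.28 (mean signals of its 2 probes of 42497 on the GATA1 siRNA array and 30963 on the control siRNA array). Class I genes of this family are near-identical in sequence, so their probes may share signal. Nlrc5, the transactivator of class I genes, was well above background on the GATA1 siRNA array alone (28.9 against 11.6). Its lower bound of 1.66-fold comes from dim signals and is not support for a difference.

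Costimulatory and adhesion genes had a median of 0.25 over 10 measured of 14. Of the 10, 9 were above 0 (52.7% of all genes) and 4 at least 25% higher (7.3%). Pdcd1lg2, a ligand of the inhibitory receptor PD-1, stood at 0.73 (signals of 3025 on the GATA1 siRNA array and 1622 on the control siRNA array), Icosl, the ligand of ICOS, at 0.47 (1282 and 828), and Tnfsf4, the ligand of OX40, at 0.37 (45.9 and 31.7). Cd86, a ligand of CD28, was above background on the GATA1 siRNA array alone (22.7 against 11.6), with a lower bound of 1.33-fold from dim signals. Cd40 was below background on both arrays.

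**Figure D4:**
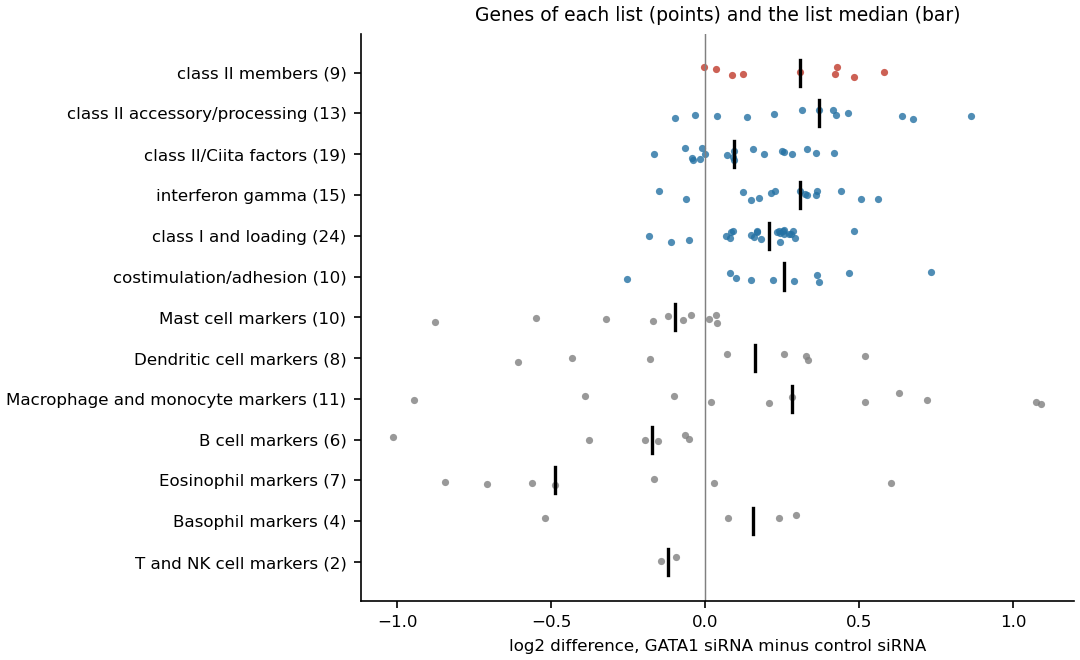
Log2 difference, GATA1 siRNA minus control siRNA, of each measured gene (points) and the median (bar) for the class II members (red), 5 lists of related genes (blue) and 7 lists of cell type markers (grey), with the number of measured genes in brackets. The 5 related lists have medians of 0.09 to 0.37, and the marker lists have medians of -0.49 to 0.28.

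Markers of cells that could carry class II beside mast cells had differences of both signs. Macrophage and monocyte markers had a median of 0.28 over 11 measured of 16. Their summed scaled level was 42.8 on the GATA1 siRNA array and 27.2 on the control siRNA array, of which Cd68 alone gave 18.9 and 9.29. Of the 11 markers, 5 were at least 25% higher (7.3% of all genes) and 2 lower by the same ratio (9.54%). At the 1.5-fold line 4 were higher (1.83%) and 1 was lower (2.77%). The median was 0.52 with no filter on dim probes and 0.57 with a stricter one, and the lowest among the processing alternatives was 0.23. Ms4a7 stood at 1.09, Cd68 at 1.07 and Cx3cr1 at -0.94, Adgre1, a macrophage surface receptor, at 0.63 and Csf1r, the receptor for the macrophage growth factor, at 0.02, while C1qa and Mertk were below background on both arrays. C1qc was above background on the GATA1 siRNA array alone (25.9 against 16.1), with a lower bound of 1.43-fold from dim signals. C1qb, the C1q chain measured on both arrays, stood at -0.10 (57.3 on the GATA1 siRNA array and 54.8 on the control siRNA array).

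Dendritic cell markers had a median of 0.16 over 8 measured of 14, with a summed scaled level of 144.8 on the GATA1 siRNA array and 166.1 on the control siRNA array. Of those sums 135.9 and 155.1 were Siglech, a lectin of plasmacytoid dendritic cells, so the sums say little of the other markers. The log2 difference of Siglech, averaged over its 2 probes, was 0.07 although its mean scaled signal was lower on the GATA1 siRNA array. Its 2 probes therefore had differences of opposite sign. Of the 8, 3 were at least 25% higher (7.3% of all genes) and 2 lower by the same ratio (9.54%). Among them Ccl17, a chemokine, stood at -0.61, Itgax, which encodes CD11c, at 0.52 and the lectin Clec10a at -0.43. Xcr1, Clec9a, Cd209a, Ccl22, Ly75 and Cd207 were below background on both arrays. The sign of this median depended on the processing, from -0.22 with no filter on dim probes to 0.22 with loess.

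B cell markers were all below 0 where measured (6 of 10, median -0.17), whereas 52.7% of all genes were above 0. Their summed scaled level was 3.40 on the GATA1 siRNA array and 4.45 on the control siRNA array. Blnk stood at -1.01, Cd79a at -0.38 and Cr2 at -0.20. Cd79a (signals of 51.4 on the GATA1 siRNA array and 59.6 on the control siRNA array) and Cr2 (45.7 and 49.3) were dim. Over all genes under 50 units the median difference was -0.10, and at 50 to 200 units it was -0.05. The defining markers Ms4a1, Pax5 and Ebf1 were below background on both arrays. Of the T and NK cell markers 2 of 8 were measured, Cd3e at -0.14 and Cd4 at -0.10. Their summed scaled level was 7.13 on the GATA1 siRNA array and 7.69 on the control siRNA array.

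Of the granulocyte lists, eosinophil markers had a median of -0.49 over 7 of 7, with Epx at -0.85, Prg3 at -0.71 and Siglecf at 0.60. Their summed scaled level was 19.4 on the GATA1 siRNA array and 26.9 on the control siRNA array, of which Prg2 alone gave 14.5 and 20.4. Basophil markers had a median of 0.16 over 4 of 4, with sums of 219.6 and 189.9, Il4 at -0.52, Mcpt8 at 0.29 and Prss34 at 0.24. Mcpt8 alone gave 121.6 and 99.1 of those sums. Mast cell markers had a median of -0.10 over 10 of 10, with sums of 2498 and 2735, and their largest differences were Mcpt4 at -0.88, Tpsb2 at -0.55 and Il1rl1 at -0.32. The part of other cells in the class II values was not tested.

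**Figure D5:**
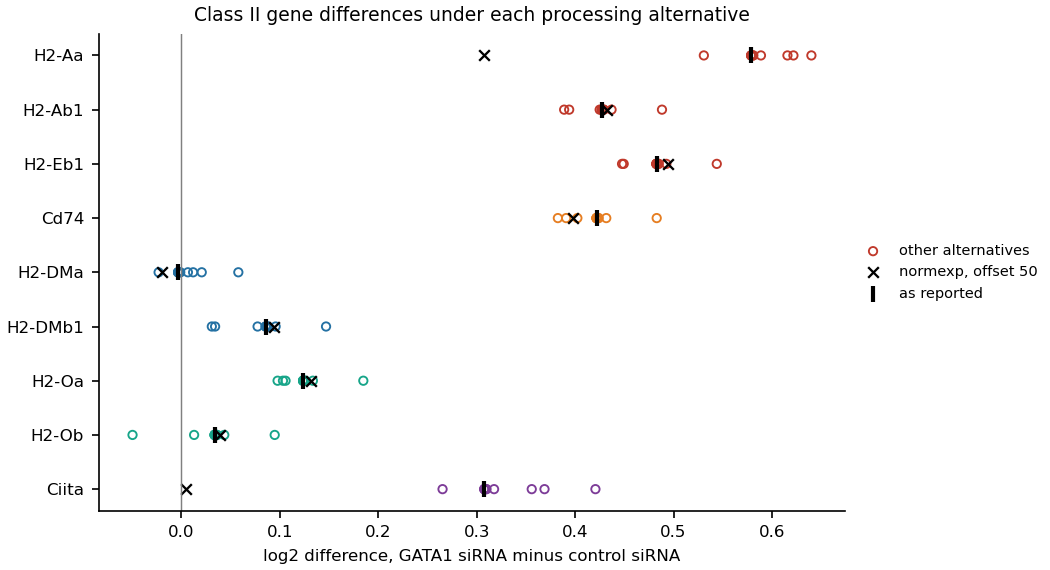
Log2 difference, GATA1 siRNA minus control siRNA, of each measured class II gene as reported (black bar), with the normexp background correction (cross) and under the other processing alternatives (open circles). H2-Ab1, H2-Eb1 and Cd74 stay between 0.38 and 0.54, whereas H2-Aa drops to 0.31 and Ciita to 0.0045 with normexp.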

How the data were processed

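The deposited intensity of each spot was read by Agilent Feature Extraction 10.7.3.1, per the file headers, background-subtracted and detrended within each array and not scaled between arrays. Calls of well above background, saturation and outlier spots are other columns of the same deposited files. The authors' table of normalized intensity equals each processed signal divided by the array's median (23.59 for GATA1 siRNA and 21.95 for control siRNA), found by comparing the values.

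Control and outlier spots were left out (133 on the GATA1 siRNA array and 117 on the control siRNA array), repeated spots were averaged on the log2 scale, and each array was divided by its 75th percentile. A probe was measured if well above background on both arrays, and a gene is the mean of its measured probes. A gene above background on 1 array has a lower bound. It is taken against the other array, at the higher of the gene's own value and the lowest signal called above background there. Genes were named by RefSeq accession (27225 probes) or symbol (3580), and 24854 probes kept the name of the array annotation. The summed level of a marker list adds the mean scaled signals of its measured genes. It is weighted to the brightest probes and does not measure the share of a cell type.

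With 1 array per group there is no test; size rules of 1.5-fold, and of 25% and 2-fold as alternatives, describe the values beside the share of all genes. The named genes are the members, Gata1, the listed mast cell markers and the 3 largest differences of each list. Genes below background and genes above it on 1 array are also named. Region genes, Marchf1, Adgre1, Csf1r, C1qb, Prg2, Siglech and H2-Eb2 were chosen after their values were seen. The members, the 5 gene lists and 7 marker lists were chosen with earlier results of these data known. The 12 alternatives used limma 3.58.1 in R 4.3.3 and Python 3.11.15, and the calculation was tested on simulated data. Some genes of the lists and 1 probe sequence are not reported here.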

Additional observations from a re-analysis of the deposited data

How the results depend on the processing

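Of the member differences recomputed under 12 alternatives, 105 moved by less than the scanner error and 2 by more. The 4 genes H2-Aa, H2-Ab1, H2-Eb1 and Cd74 stayed above 0 in all. Part of the 105 could not move, and the scanner error is wider than the SD between repeated spots, so the count overstates how far the values were tried. Most members have 1 measured probe, whose value the rules on dim probes and on choosing among probes do not alter. With normexp (offset 50), which by its added offset lowers dim differences, H2-Aa was 0.31, Ciita 0.0045, the member median 0.13, the costimulation median 0.15, the dendritic median -0.047 and the eosinophil median -0.23. It left 111 genes higher and 159 lower by 1.5-fold, against 376 and 568. Without a filter on dim probes the dendritic, macrophage and T and NK medians were -0.22, 0.52 and -0.35, with 1809 genes higher and 2765 lower. With the stricter filter, which tests fewer genes, the dendritic, macrophage and B cell medians were -0.19, 0.57 and -0.33, with 215 higher and 234 lower. With the brightest probe per gene the dendritic median was 0.037. With the median, quantile, loess and authors' scalings 1 member was 1.5-fold higher, against 0. Loess gave 490 genes higher and 424 lower (53.6% higher) and the authors' values gave 511 and 450 (53.2%), against 39.8%. The 2-fold rule gave 60 and 124 genes, and the rule of 25% gave 1498 and 1957 with 4 members higher. None of the 765 spots with several 4-fold neighbours was a member probe. Leaving them out therefore changed the members only through the scaling and says nothing of their own spots. No paired analysis was possible because each group is 1 array. Dim probes limit Ciita, and H2-DMb2 was not detectable at this signal over background.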
